A study of Homo sapiens with 15 samples.

Results

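The MER repeats, named for a medium reiteration frequency, are families of interspersed repeats that were numbered before most of them could be placed in a class. They were taken here by name alone, as every repeat whose name starts with MER and a digit, and this gave 167 of the 834 named repeats in the table (20.02%). The study cultured 3 human colorectal carcinoma lines, DLD1, HCT116 and HCT8, with 5-azacitidine (AZA) at 0, 500 or 1000 nM, and deposited the percentage of methylated CpGs per repeat family in 15 bisulfite sequencing libraries. 5-Azacitidine is a cytidine analogue that traps DNA methyltransferases. In each line the 0 and 1000 nM groups had 2 technical replicates and the 500 nM group had 1 library. How long the cells were treated is not given in the sources used here. The values of single names are read only in replicate 1 of DLD1 without drug, because in the other 14 libraries the values were not seen to follow the names. That library has no readable replicate, so the differences below are descriptions of 1 library of 1 cell line, given without a test.

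MER names cover 2 unlike kinds of mobile element. Some are DNA transposons, mostly short derivatives that lost their transposase gene and were moved by the enzymes of the hAT or Tigger groups. The others are remains of endogenous retroviruses: long terminal repeats (LTRs), which carry the promoter of the provirus, and the internal regions between 2 LTRs, whose names end in -int. Retroviral MER families belong to the ERV1, ERVK or ERVL class. CpG methylation is a main means by which somatic cells keep such elements silent, and some MER LTRs serve as promoters or enhancers of host genes. Each value covers copies of a family scattered over the genome, so no position can be given for it.

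Whether values followed names was checked in each library before any name was read. The 17 AluS names are closely related, abundant SINE families. In replicate 1 of untreated DLD1 their values had an SD of 1.63 points, and in the other 14 libraries the SD ran from 7.81 to 25.01 points. Across the 167 MER names the other libraries had Pearson correlations with replicate 1 of untreated DLD1 from -0.0813 to 0.155. The 6 pairs of technical replicates correlated at -0.0642 to 0.0572 across the same names, including the DLD1 untreated pair at -0.0642. As an example of a single row, MER4A was listed at 55% and 46% in DLD1 without drug. Without drug it was at 74% and 83% in HCT116, and at 75% and 69% in HCT8. At 500 nM the row was listed at 0% in DLD1, 64% in HCT116 and 63% in HCT8. MER5A had 67% and 75% in DLD1 without drug and 0%, 100% and 32% at 500 nM in DLD1, HCT116 and HCT8. Line and dose also differ among these values, so a single row cannot show whether values follow names. Libraries share only the row names, and the correlations are descriptions. A low correlation between libraries cannot tell which of them follows the names. Reading replicate 1 of untreated DLD1 by name therefore rests on the AluS spread, a measure from names outside MER.

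**Figure D1:**
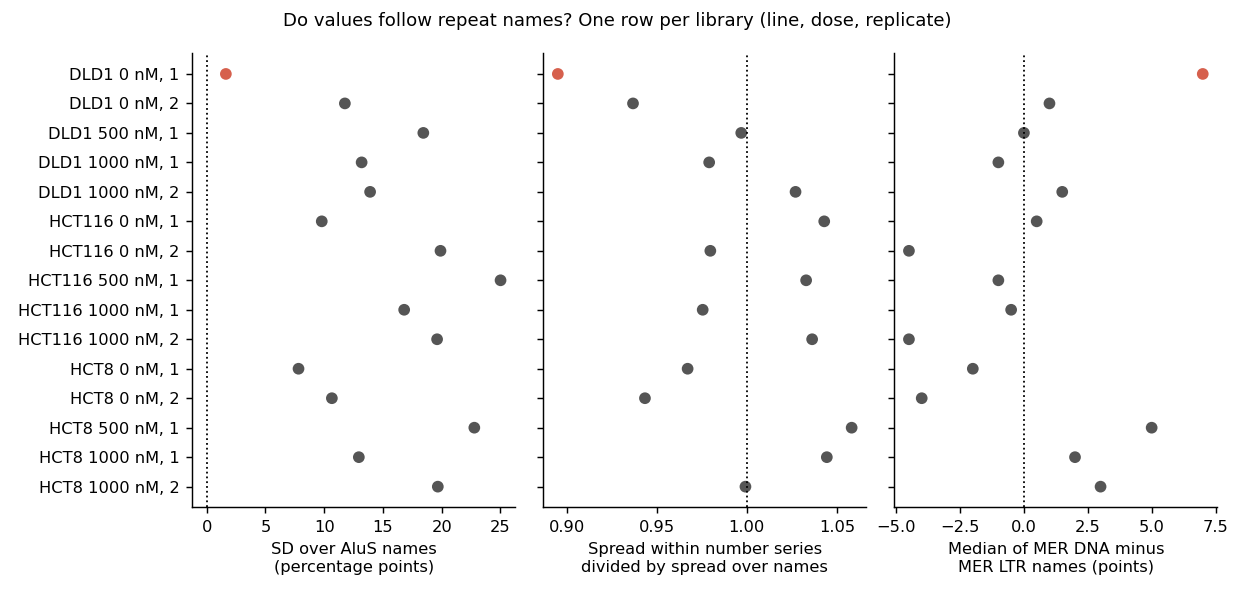
Each row is a library, with line, AZA dose and replicate number. The panels give the SD over the 17 AluS names in percentage points, the SD of MER names within number series divided by the SD over the same names, and the median of MER DNA transposon names minus the median of MER LTR names in points. Replicate 1 of untreated DLD1 (red) has the lowest AluS spread, the lowest ratio and the highest class difference of the 15 libraries. The ratio and the class difference are also reported below as results of this library, so their rank here is not separate support for them.

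In replicate 1 of untreated DLD1 the MER repeats were mostly methylated and lay close to the other repeats. Their median was 64%, with an interquartile range from 56% to 70%, against a median of 62% and a range from 53% to 69% over the 667 names outside the group. Of the MER names, 92 lay above the median of all names (62%), 70 below it and 5 at it. Values from 60% to 75% made up 55.1% of the MER names and 46.5% of the other names. The SD over names was 12.95 points for MER and 15.8 points for the rest, and 15.0% of MER names were under 50%, against 17.8% of the rest. None of the MER names was listed at 100% and 1 was listed at 0%, against 7 and 6 of the other names. The wider spread of the rest went with 109 names of satellites, simple repeats and RNA genes, which had an SD of 26.5 points, 50.5% of names under 50%, and 6 of the names at 0%. A second comparison took 332 DNA transposon, LTR and internal names outside MER, 38 LTRs of the MaLR group among them. Here MER was still the higher by median, but it was the wider group. These 332 names had a median of 62%, an SD of 10.7 points, 10.5% of names under 50% and 0 names at 0%. The MER side kept its 4 names without a class, which had an SD of 38 points and included the 1 name at 0%. Read depth per value is unknown, and a value of 0% cannot be told apart from a family with few reads.

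DNA transposon names stood somewhat higher than LTR and internal names within MER, with broad overlap. The 60 MER names of DNA transposons had a median of 68% (mean 67.1% ± 9.66, SD over names), and 46 of them lay above the median of all names. The 87 MER LTRs had a median of 61% (mean 59.2% ± 11.8), with 38 above and 46 below. The 16 internal names had a median of 60% (mean 58.3% ± 11.3), with 7 above and 8 below. The difference between the medians of DNA transposon and LTR names was 7 points, less than the SD over names of either group. That SD describes the spread of single names, not the error of a median. In the other 14 libraries, where values were not seen to follow names, the difference over the same rows ran from -4.5 to 5 points.

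Each kind of MER element stood near the repeats of its own class that carry other names. DNA transposons not named MER (72 names such as Tigger, Charlie and mariner families) also had a median of 68%, with a mean of 68.4% ± 9.57. LTRs named LTR and a number had a median of 62% (142 names, mean 61.03% ± 10.9), and LTRs of the MaLR group had 60.5% (38 names, mean 60.2% ± 4.61). Internal regions outside the MER names had 58.5% (80 names, mean 58.5% ± 11.1). The medians of MER and other names of the same class thus differed by 0 points for DNA transposons, -1 point for LTRs (against the names starting with LTR) and 1.5 points for internal regions.

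**Figure D2:**
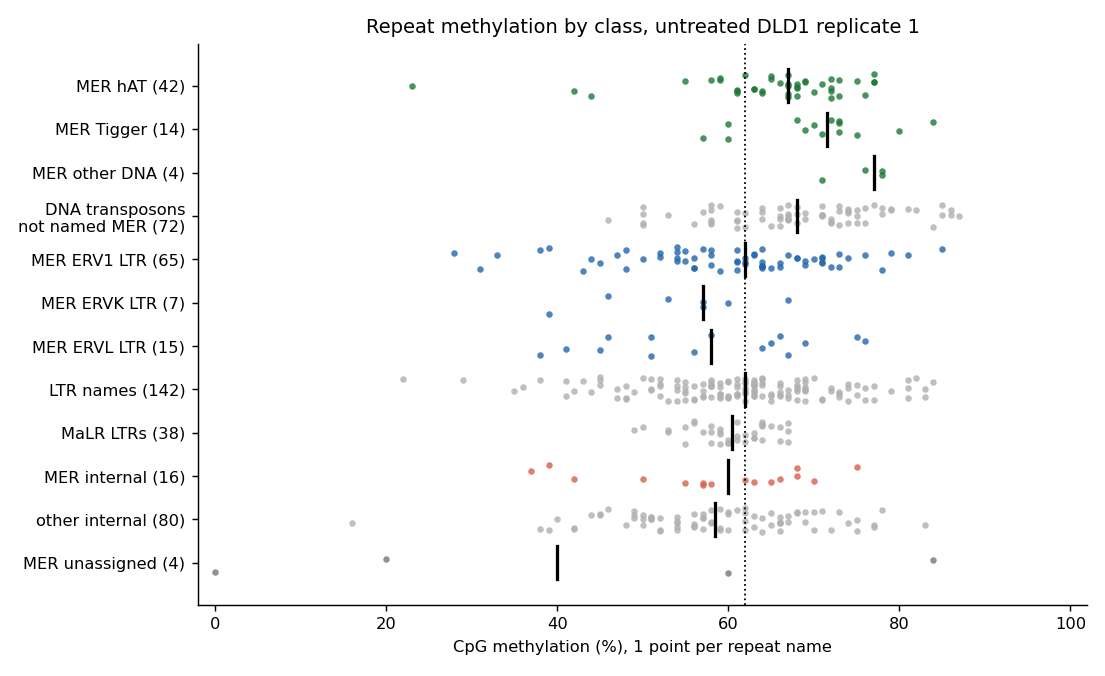
Percent CpG methylation in replicate 1 of untreated DLD1, 1 point per repeat name, with the number of names in brackets. Black bars are medians, the dotted line is the median of all names (62%), and grey points are classes not named MER or, in the bottom row, the 4 MER names without a class. MER DNA transposons (green) centre near 68%, like the grey DNA transposons, while MER LTRs (blue) and internal names (red) centre near 60% with more names under 50% (17 of 87 and 3 of 16, against 3 of 60 DNA transposons).

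Among the DNA transposons, the 42 MER names of the hAT group had a median of 67% and 31 of them exceeded the median of all names. MER5A, a short and abundant hAT derivative, was at 67%, with MER5A1 at 69%, MER5B at 63% and MER5C at 73%. MER20, copies of which act as enhancers in decidualized endometrial cells, was at 67%, and MER20B at 72%. MER1A was at 71% and MER33 at 72%, and MER3 reached 77%, as did MER45A and MER97c. The lower end was thin: MER107 was at 23%, MER30B at 42% and MER106A at 44%, while MER30 stood at 75% and MER106B at 72%. MER30B and MER106A were named after their values had been seen.

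The 14 MER names of the Tigger group, pogo-like transposons, had a median of 71.5%, and all lay between 57% and 84%. MER2 was at 70%, while MER2B, at 84%, was the highest DNA transposon of the group. The MER44 names ran from 80% for MER44A through 73% for MER44B and 68% for MER44C to 60% for MER44D. MER75, the piggyBac name in the table, was at 71%, and MER104 and MER105, 2 other DNA transposons, were both at 78%. MER85, also a piggyBac family, had no row. The median of the Tigger names exceeded that of the hAT names by 4.5 points. Outside MER this order was not seen: 26 names starting with Tigger had a median of 71% and 25 starting with Charlie, a hAT family, had 72%.

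LTRs of the ERV1 class, the largest retroviral class of the MER names, had a median of 62% over 65 names, with 30 above and 32 below the median of all names. They held both ends of the LTR range, from 28% for MER67D to 85% for MER48, the highest MER name. MER34C2 was at 81%, MER50B at 79% and MER51E at 78%. At the low end MER101B was at 31%, MER83B at 33%, MER83C at 38% and MER67A at 39%. MER39, which supplies a promoter of the prolactin gene in the human decidua, was at 66%.

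The 7 LTRs of the ERVK class had the lowest median of the LTR classes, 57%, and 6 of them lay below the median of all names. MER11A was at 57%, MER11B at 53%, MER11C at 67% and MER11D at 46%. MER9a1 was at 60%, MER9a2 at 39% and MER9a3 at 57%. The internal regions of the proviruses that these LTRs flank carry other names, HERVK11-int for MER11 and HERVK9-int for MER9, and were at 54% and 58%. Both lay inside the range of their LTR names. With 7 names from 2 series, the ERVK median rests on few families.

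The 15 LTRs of the ERVL class had a median of 58%, with 7 above and 8 below the median of all names. MER21A, a copy of which supplies the placental promoter of the aromatase gene, was at 75%. MER21B was at 69% and MER21C at 65%. MER74C was the lowest at 38%.

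The 167 names fell into 69 number series, that is, names that share the number after MER, and 31 of these held a single name. The remaining 38 series held 136 names. Their letter variants were nearly as far apart as names of different series: the pooled SD within series was 9.95 points, against 11.1 points over the same 136 names. The ratio of these, 0.895, was the lowest of the 15 libraries, but the range in the others, from 0.937 to 1.06, came close to it. For the 80 LTR names in such series the SD within series was 10.2 points against 11.5 points over the names. For the 41 DNA transposon names it was 8.62 against 8.35 points over the same 41 names, and the SD over all 60 MER DNA transposon names was 9.66 points. Variants share a source sequence and are not replicates.

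Some series were narrow. Of the 27 series with 3 or more names, internal names included, 8 spanned at most 10 points and 13 spanned more than 20. MER66 spanned 4 points, with MER66A at 54%, MER66B at 58%, MER66C at 54% and MER66-int at 55%. MER58 also spanned 4 points (68% to 72%), and MER31 and MER102 spanned 5 points each (66% to 71%, and 65% to 70%). Among series with 3 or more names, the median span was 9.5 points over 8 DNA series, against 22 points over 19 LTR series. Series of 2 names did not share this order. DNA spans there ran from 2 points for MER1 to 33 points for MER30, and LTR spans from 4 points for MER54 to 9 points for MER39. An LTR series held up to 11 names and a DNA series up to 4, and a span grows with the number of names. The LTR spans also include internal names, which no DNA series held. Of 13 series with both kinds, the internal value lay below all LTR names in 5 and above them in 2, which widened the span, and within their range in 6. The MER52 LTRs alone ran from 55% to 64%, with MER52-int at 37%.

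The 11 names of MER4, the largest series, ran from 48% for MER4A1_ to 71% for MER4D. In between lay MER4E at 52%, MER4B at 54%, MER4A at 55%, MER4B-int at 57%, MER4D0 and MER4D1 at 61%, MER4A1 and MER4-int at 63%, and MER4C at 64%. MER4A1 and MER4A1_, whose names differ by a final mark only, stood 15 points apart. The MER41 series of ERV1 LTRs was tighter. MER41B was its lowest name at 56%, and MER41A and MER41E at 64%, MER41D at 66%, MER41G and MER41-int at 68% and MER41C at 69% followed.

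MER34 was among the widest series. MER34A and MER34B were at 48% and 44%, whereas MER34C_ was at 62%, MER34D at 71%, MER34 and MER34A1 at 73%, and MER34C2 at 81%. MER51 was split in the same way, with MER51C at 43%, MER51A at 64%, MER51B at 74% and MER51E at 78%. In MER67 every name was below the median of all names, with MER67D at 28%, MER67A at 39%, MER67C at 45% and MER67B at 59%, and the series had the lowest median of those with 3 or more names, 42%. The MER70 LTRs were low too, with MER70A and MER70C at 51% and MER70B at 46%. In MER45 the variant MER45A stood at 77%, apart from MER45R at 65% and MER45B and MER45C at 61%.

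The letter itself carried no common direction. In 23 series with both an A and a B variant, A was the higher in 12, B in 10, and 1 was tied, with a median difference of A minus B of 1 point and extremes of -28 and 16 points. In the DNA series A was higher in 6 of 9 and B in 2, and in the LTR series A was higher in 6 of 14 and B in 8.

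**Figure D3:**
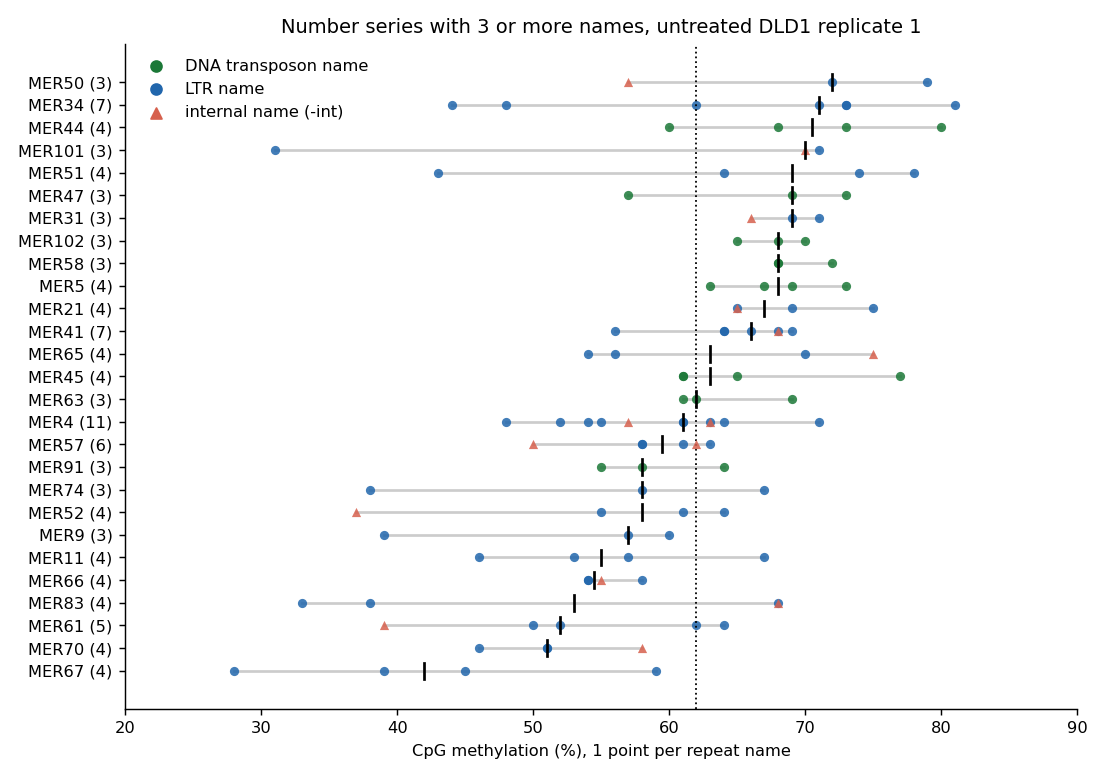
Percent CpG methylation in replicate 1 of untreated DLD1 for the 27 number series with 3 or more names (number of names in brackets), ordered by their median (black bar). Circles are DNA transposon (green) or LTR (blue) names and red triangles are internal names; the dotted line is the median of all names (62%). Series medians run from 42% for MER67 to 72% for MER50, and 13 series span more than 20 points, internal names included.

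Internal names were not set apart from the LTRs as a group. The median of the 16 internal names was 1 point below that of the 87 MER LTR names, and their range, from 37% to 75%, lay within that of the LTRs. Of the 13 series that held both kinds, the internal value (the median where there were 2) exceeded the LTR median in 6 and fell short of it in 7, with a median difference of -1 point and an SD of 15.7 points. The differences ran from -24 to 30 points, so internal and LTR values of a series could lie far apart in either direction.

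In 5 series the internal value lay below every LTR name. MER52-int was at 37%, while MER52A was at 61%, MER52C at 55% and MER52D at 64%. MER61-int was at 39%, below MER61A at 62%, MER61B at 64%, MER61C at 52% and MER61F at 50%. MER61 LTRs are known for p53 binding sites. MER50-int was at 57% below MER50 at 72% and MER50B at 79%. MER31-int, at 66%, was 4 points below the median of its LTRs.

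The fifth was MER57, where MER57-int was at 50% and MER57A-int at 62%, with a median of 56% below LTR names at 58% for MER57A1 and MER57D, 61% for MER57B1 and 63% for MER57E1. This placing rests on MER57-int, since MER57A-int lay inside the LTR range.

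In 2 series the internal value lay above every LTR name. MER65-int was at 75% against 54% for MER65A, 70% for MER65B and 56% for MER65D, and MER70-int was at 58% against at most 51%. In the other 6 series it lay inside the LTR range or at its edge. MER21-int was at 65%, equal to MER21C. MER101-int was at 70%, next to MER101 at 71% and far from MER101B at 31%. MER83A-int was at 68%, equal to MER83, with MER83B and MER83C lower. MER83A itself had no row. The remaining internal name, MER110-int at 42%, had no LTR of its series in the table.

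**Figure D4:**
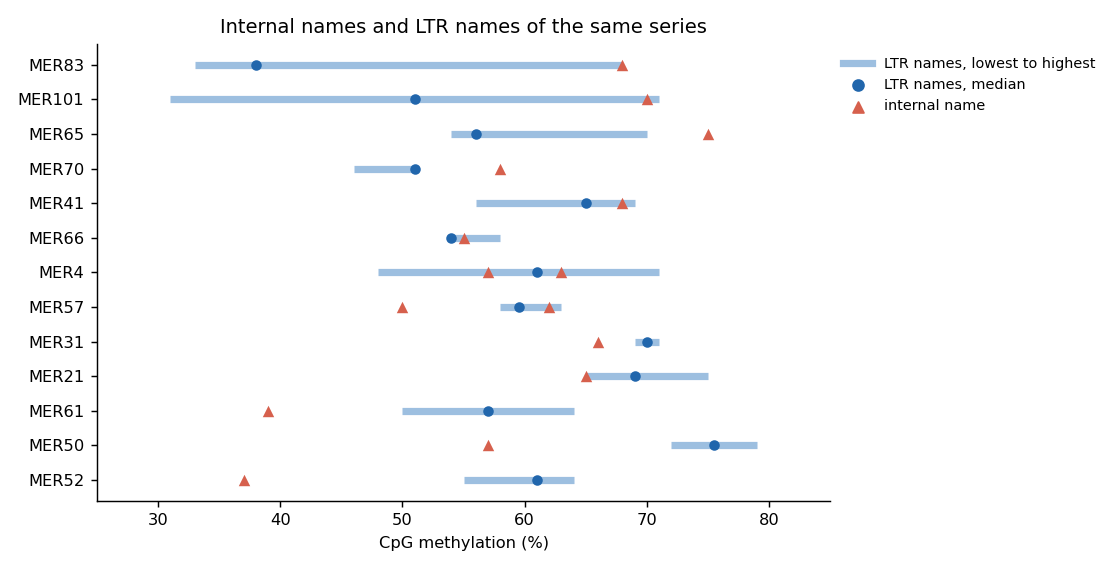
Internal (red triangles) and LTR names of the 13 number series that hold both, percent CpG methylation in replicate 1 of untreated DLD1. Blue bars run from the lowest to the highest LTR name and blue points are LTR medians. MER52-int, MER50-int and MER61-int lie 18 points or more below the LTR medians of their series, and the internal names of MER83, MER101 and MER65 lie 19 points or more above them.

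The extremes of the MER names were of mixed kinds. The 12 lowest names (the tenth lowest tied with 2 others) were 7 LTRs, 2 internal regions, 1 DNA transposon and 2 names that were given no class. The 12 highest held 7 DNA transposons, 4 LTRs, 1 name without a class and 0 internal regions. All 167 MER names comprised 87 LTRs, 60 DNA transposons, 16 internal regions and 4 names without a class. The 4 names without a class spread over the whole range: MER133A was listed at 0%, MER136 at 20%, MER121 at 60% and MER124 at 84%. MER121 is a family known for copies that are strongly conserved among mammals.

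Across the other libraries only the pooled level of the rows that carry MER names can be given, and it moved with the level of all rows. In DLD1 the mean over these rows was 61.5% and 61.4% in the untreated replicates, 37.2% at 500 nM and 38.02% and 38.4% at 1000 nM. The untreated HCT116 libraries were at 73.6% and 73.7%, the 500 nM library at 55.6% and the 1000 nM libraries at 57.2% and 59.0%. In HCT8 the untreated libraries were at 67.7% and 68.6%, the 500 nM library at 44.2% and the 1000 nM libraries at 45.6% and 49.1%. Every treated library lay below both untreated libraries of its line. In DLD1 the mean at 1000 nM minus that at 0 nM was -23.2 points over MER rows and -22.6 points over the other rows. The same differences were -15.6 and -12.5 points in HCT116, and -20.8 and -20.7 points in HCT8. At 500 nM they were -24.2 and -23.0 points in DLD1, -18.0 and -18.3 points in HCT116, and -24.0 and -23.7 points in HCT8.

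In HCT116 the gap between -15.6 and -12.5 points came mainly from replicate 2 at 1000 nM, where the mean over MER rows minus that over the others was -4.41 points. In the other 13 libraries whose values were not seen to follow names, that difference ran from -1.10 to 1.44 points. Since values were not seen to follow names in these libraries, the rows called MER there are not known to hold MER repeats, and no response of MER repeats to the drug can be read from them.

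**Figure D5:**
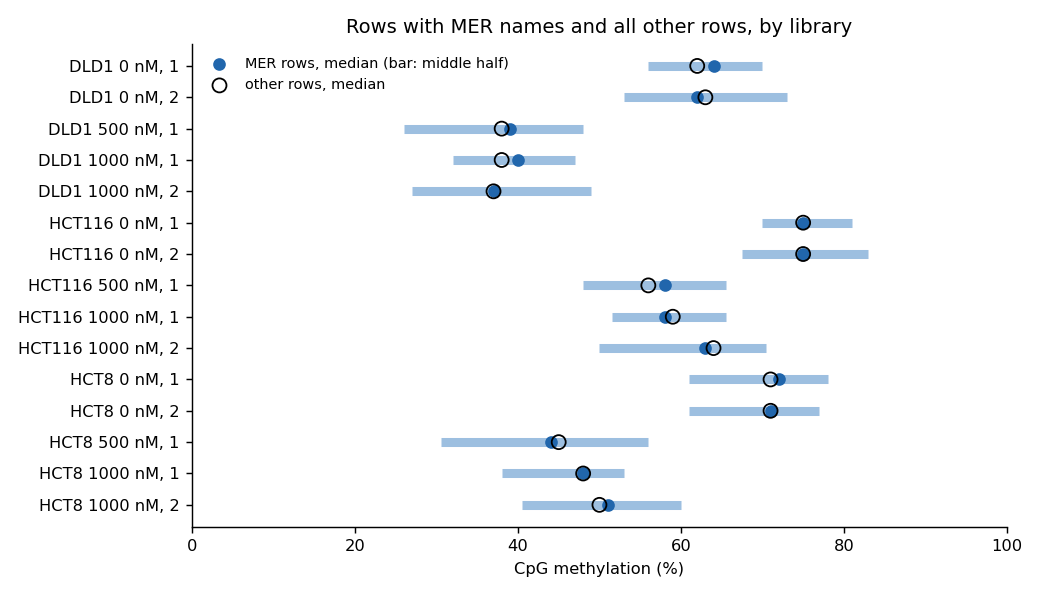
Median percent CpG methylation over the 167 rows with MER names (blue points, bars from the 25th to the 75th percentile) and over the 667 other rows (open circles) in each library, labelled by line, AZA dose and replicate. The 2 medians differ by at most 2 points in every library, and both are lower in each treated library than in the untreated libraries of its line.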

How the data were processed

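Per the labels, DNA was bisulfite converted, made into libraries and sequenced with paired reads on a MiSeq. The submitters' processing notes name BSMAP 2.74, Picard 1.8.4 and the build hg19, with no role given. The authors deposited 1 table of percent CpG methylation per RepeatMasker repeat, in whole percents, per the file headers. The way CpGs or reads were combined is not given in the sources used here, nor is any filter or the coverage. The labels name total RNA as the molecule, against their own protocol, and the values were taken as DNA methylation.

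The row without a name (1 of 835) was left out. Columns were matched to samples by title. Members were taken by name pattern, and their class (hAT, Tigger, other DNA transposon, ERV1, ERVK, ERVL) was assigned from general knowledge of the names, since the table has no class column; 4 stayed unassigned. Lists of other repeats were made by name patterns. The members and lists were chosen with earlier results of these data known. Medians, interquartile ranges and SDs are over names. The spread within series is the SD pooled over series of at least 2 names, and the calculation was checked on simulated data. Names given in the text are the 10 lowest and 10 highest with ties, all internal names, all names of series with at least 4 names and a fixed list, unless said otherwise; MER30, MER106B, MER20B, MER50, MER101, MER9a1 and MER9a3 are given as partners of such names, MER9 and MER85 of the fixed list had no row, and HERVK9-int and HERVK11-int as internal regions of MER LTRs. Technical replicates were not tested, because no value is read by name in more than 1 library. Calculations used Python 3.11.15, numpy 2.4.6, pandas 2.3.3 and matplotlib 3.10.9.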

Additional observations from a re-analysis of the deposited data

How the results depend on the processing

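Of the 20 alternative values computed for the MER results of replicate 1 of untreated DLD1, 0 changed sign, 17 stayed within 1 percentage point of the value reported, which is the rounding step of the table, and 3 moved further. Some of these outcomes were fixed in advance, so the counts do not measure robustness. A spread within series cannot change sign. Leaving out values of 0% and 100% removed no MER DNA transposon, LTR or internal name, so the results for these classes and for the spread within series could not move. The median of MER names exceeded that of other names by 2 points, and by 1 point with satellites, simple repeats and RNA genes left out of the other names. It was 4 points with 1 value per number series on the MER side only, the other names keeping 1 value per name. The difference of MER DNA transposons minus MER LTR and internal names was 7 points by medians, 8.02 points by means and 8.02 points after a logit transform (offset 1 point). The difference of internal and LTR names (-1 point) is no larger than the rounding step. Leaving out a replicate was not possible, since a single library is read by name. No paired analysis was possible because no result comes from a test between groups. Without coverage no minimum depth or weighting could be applied.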
